A study of Mus musculus with 4 samples.

Results

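Gene expression in p65-/- fibroblasts was set against that in p65+/+ fibroblasts before injection into mice, with 1 Affymetrix array for each genotype. These are 2 of the 4 arrays of the series. The arrays were taken by the genotype and sampling stage that the labels give, and all 45037 probe sets on them were used. The cells were mouse embryonic fibroblasts (MEFs), either p65-/-, without the gene Rela that encodes the p65 subunit of NF-kB, or p65+/+. All groups, the p65+/+ cells included, had been infected with the retrovirus pBabe-HRASG12V-Hygro, which brings in an activated form of the oncogene HRAS and a hygromycin resistance gene. The other pair of arrays came from p65-/- and p65+/+ cells of the same kind after tumour growth in SCID mice, a strain without functional T and B lymphocytes. Those tumours had been digested with collagenase and the cells cultured again and kept in hygromycin for 2 weeks. The sources used here do not give how many lines, clones, mice and tumours stand behind the arrays. Genotype and cell line therefore cannot be told apart. There were no replicates, so nothing was tested, and "higher" and "lower" below describe the ratio of 2 arrays.

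NF-kB is a family of dimeric transcription factors that rest in the cytoplasm, bound to inhibitors of the IkB family. Signals from receptors such as those for TNF and IL-1 activate the IKK kinase complex, which marks IkB for destruction and lets the dimers enter the nucleus. The p65 subunit (Rela) carries a transactivation domain, and in fibroblasts p65 dimers drive inflammatory cytokines, chemokines and the IkB genes that shut the response off again. Rela was measured by 1 probe set on chromosome 19. Its signal was 214 in p65-/- cells and 1479 in p65+/+ cells, 6.91-fold lower. The p65-/- signal was thus above the floor of its array, defined below. The position of this probe set relative to the deletion was not analysed here, so it checks the labels only in direction.

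Before injection, the largest decreases in p65-/- cells included decorin (Dcn), a proteoglycan of connective tissue, ceruloplasmin (Cp), a copper-binding acute-phase protein, the retinoic acid binding protein Crabp1, and the chemokines Cxcl5 and Ccl2. The genes Mtap and Cdkn2b, on chromosome 4, had almost no signal in p65-/- cells and strong signals in p65+/+ cells. Higher signals in p65-/- cells were fewer, and they included the IGF-binding proteins Igfbp4 and Igfbp6, the interferon-induced membrane protein Ifitm1, the xenobiotic enzyme Ephx1 and the CDK inhibitor Cdkn1a (p21).

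Values are the signal intensities deposited by the authors, on a linear scale. The floor of an array was its median signal, 87.8 for p65-/- and 93.4 for p65+/+ cells. Genes entered the comparison when the signal was at or above the floor in either genotype. A signal below the floor was replaced by the floor, so that the ratio is then a bound ("at least"). Signals under the floor are printed as measured but have no order among themselves. Of 18193 genes with a probe set of their own, 12597 were compared, and 5596 were under the floor on both arrays. In p65-/- cells 2283 genes (18.1%) were 2-fold or more lower and 266 (2.11%) were 2-fold or more higher. The count of each group below is to be read beside these shares, and lower counts in tumour cells beside 5.62% of all genes. After quantile normalization, which gives all 4 arrays the same distribution of signals, the counts were 1563 (12.4%) lower and 897 (7.12%) higher, and the median log2 difference moved to 0.24, against -0.02 in the deposited signals. At 4-fold, 583 genes were lower and 33 higher, and at 8-fold 80 were lower and 7 higher. Just inside and just outside the 2-fold limit stood Fkbp7 (-1.001) and Hprt (-0.999) on the lower side, and Tbx19 (1.002) and Dcaf4 (0.996) on the higher side, as log2 differences. By probe set, 4561 of 25361 (18%) were lower and 410 (1.62%) higher.

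**Figure D1:**
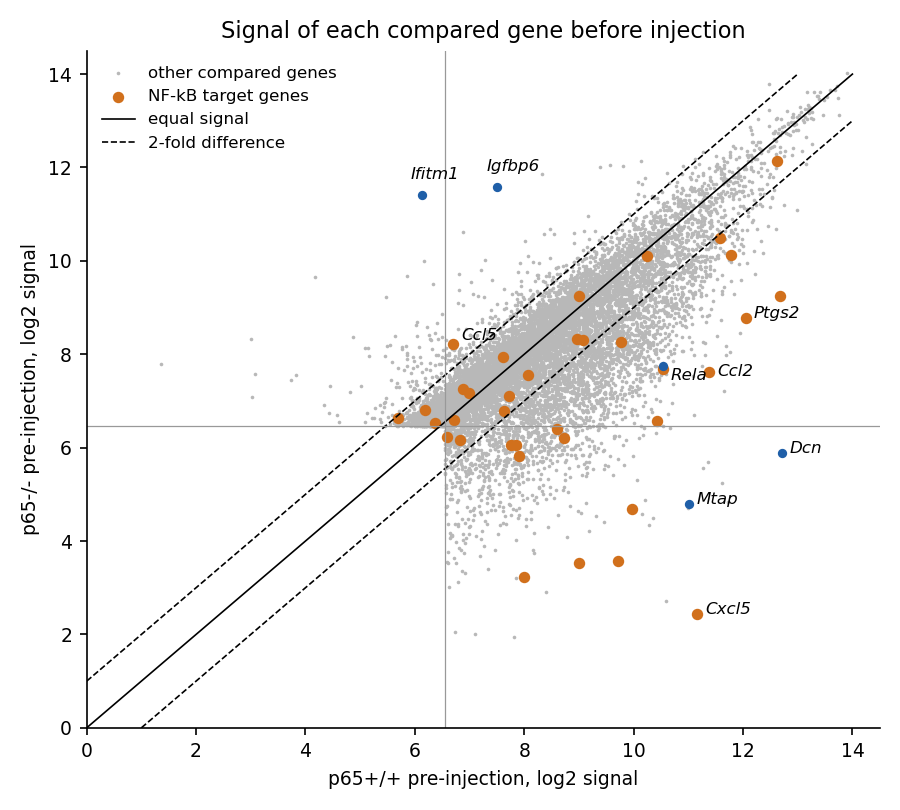
Signal of each of the 12597 compared genes before injection, as log2 of the deposited signal, with p65-/- cells on the vertical and p65+/+ cells on the horizontal axis, and 1 array for each. Orange points are the 36 compared NF-kB target genes, blue points other named genes, grey lines the floor of each array, and dashed lines a 2-fold difference. More points lie below the lower dashed line (2283 genes) than above the upper one (266 genes).

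In the deposited signals the p65-/- pre-injection array stood apart from the other 3. Its 75th percentile of signal was 198, against 256 for p65+/+ pre-injection, and it was 242 for p65-/- tumour and 255 for p65+/+ tumour cells. The excess of lower over higher genes moved with gene length. With genes split by their length on the genome into 10 bins of equal number, lower genes made up 5.91% of the shortest bin, 15.3% of bin 5 and 31.1% of bin 8, which covers 43.1 to 66.7 kb. In tumour cells, where p65-/- cells were lower for 674 of 11988 genes (5.62%) and higher for 328 (2.74%), these shares were 4.29%, 3.97% and 7.13%. In the longest bins, 9 and 10, the shares were 28.4% and 24.6% before injection, below bin 8, and 8.57% and 9% in tumour cells, above it. The p65-/- pre-injection array set against the p65-/- tumour array also had more lower genes in bin 8, with 3.66% of bin 1 and 25.9% of bin 8 lower before injection. The p65+/+ pre-injection array set against its tumour array did not, with 1.12% and 0.917%. The share of lower genes before injection also moved with signal strength, read as log2 signal on the p65+/+ tumour array. It was 0.963% for signals of 6 to 7, 24.1% for 8 to 9, 35.8% for 9 to 10, 41.4% for 11 to 12 and 24.5% for 12 to 13. Genes near the floor can hardly be counted as lower, since a signal below the floor is set to it. That rule limits the shares at the weak end. The 18.1% of all compared genes takes in such genes, so groups with strong signals are also to be read beside the shares at their signal. The part of gene length, of signal strength and of this array in the differences below was not tested. For each group of genes its median length on the genome is therefore given, beside its count of lower genes, where it is above that of the compared genes that differed by under 2-fold (19.1 kb).

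The difference was also unequal between chromosomes. The median log2 difference was -0.38 for chromosome 13, -0.36 for the X chromosome, -0.32 for chromosome 18 and -0.27 for chromosome 14, while it was 0.14 for chromosome 7 and 0.11 for chromosome 11. Lower genes made up 32.2% of the 447 compared genes of chromosome 13 and 7.32% of the 970 of chromosome 7. The separate pair of tumour arrays gave medians of -0.33 for chromosome 13, -0.29 for chromosome 18, -0.27 for chromosome 14 and 0.11 for chromosome 11, close to those before injection. The X chromosome, at -0.10, and chromosome 16, at -0.03 against -0.19 before injection, were nearer to 0 in tumour cells. Median gene length was 27.4 kb on chromosome 13, 24.9 kb on chromosome 14 and 15.97 kb on chromosome 7. With the median of each length bin taken off, chromosome 13 stood at -0.32, the X chromosome at -0.31, chromosome 14 at -0.26 and chromosome 18 at -0.21. After quantile normalization the medians were -0.06 for chromosome 13, -0.08 for the X chromosome, -0.02 for chromosome 18 and 0.03 for chromosome 14, near 0 but below the median of all genes (0.24), and 0.42 for chromosome 7. The copy number of the chromosomes was not analysed here.

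**Figure D2:**
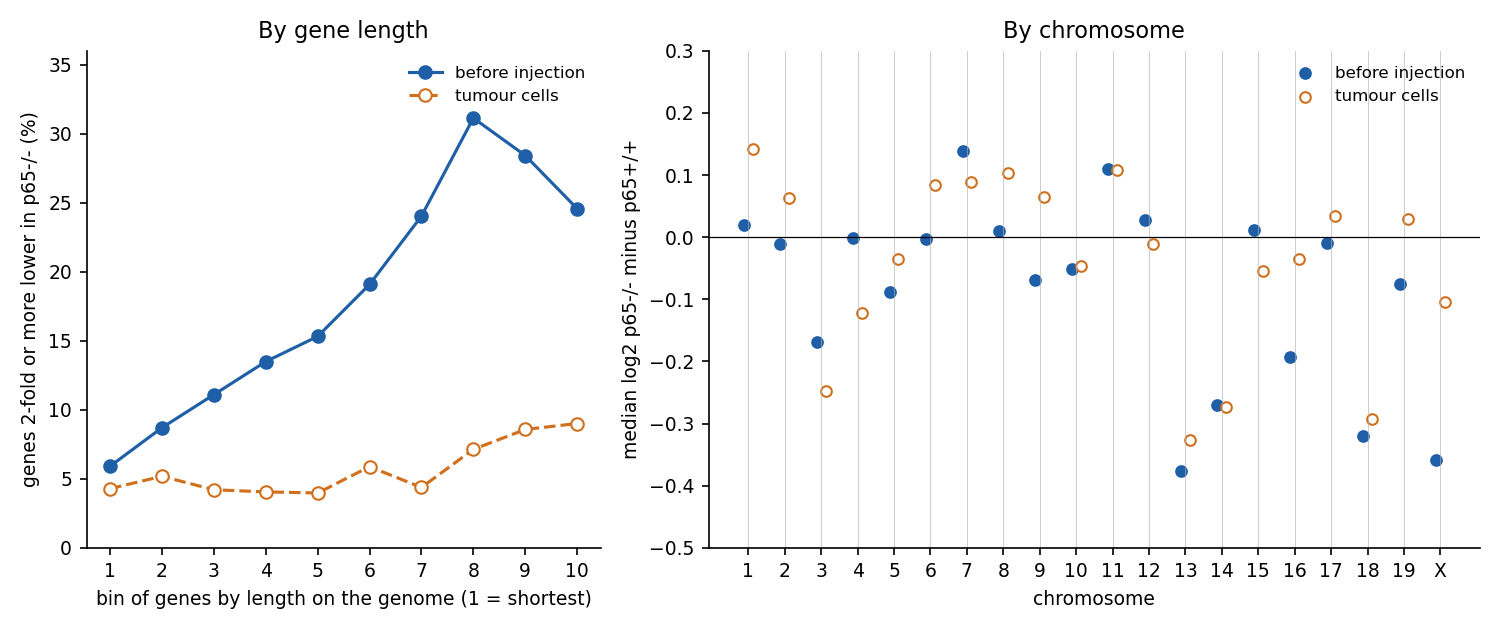
On the left, the share of compared genes (%) that were 2-fold or more lower in p65-/- than in p65+/+ cells, by bin of gene length, in the pre-injection pair (filled) and the tumour pair (open). On the right, the median log2 difference, p65-/- minus p65+/+, by chromosome in the same 2 pairs, with chromosomes 13, 14 and 18 below -0.2 in both.

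The tumour pair shares no array with the pre-injection pair, so it shows which genotype differences were also found in cells that had grown in a mouse. Of the 2272 lower genes that were compared in both pairs, 413 (18.2%) were lower in tumour cells too, and these were 62.2% of the 664 lower genes of the tumour pair. Over all 11756 genes compared in both pairs, 5.65% were lower in the tumour pair. Of 244 higher genes, 73 (29.9%) were higher in tumour cells too, 23.2% of the 315 higher there, against 2.68% of all genes. The larger a decrease before injection, the more often it was found again. The share was 12.3% for genes 2-fold to 4-fold lower, 29.3% for those 4-fold to 8-fold lower and 72.5% for those lower by 8-fold or more, 58 of 80. Opposite differences were found for 42 of the lower and 17 of the higher genes.

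**Figure D3:**
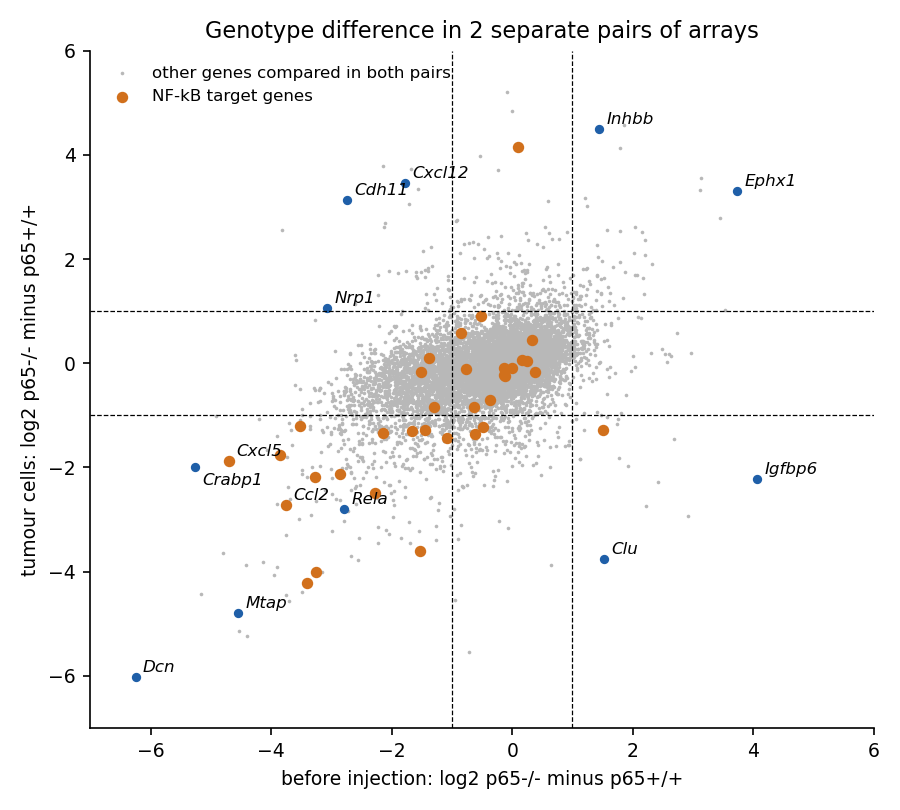
Log2 difference between p65-/- and p65+/+ cells of each gene compared in both pairs of arrays, after signals under the floor were set to it, with the tumour pair on the vertical and the pre-injection pair on the horizontal axis. Dashed lines mark 2-fold. Dcn, Mtap and Rela lie far down on the left in both pairs, while Cdh11 and Cxcl12 lie at the upper left and Igfbp6 and Clu at the lower right.

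Among NF-kB subunits and IkB genes, 5 of 9 compared were lower in p65-/- cells and none was higher, with a median log2 difference of -1.20 and the same counts after quantile normalization. Rela itself, fixed by the genotype, is 1 of the 5, and without it 4 of 8 were lower, with a median of -0.91. Nfkbia, which encodes IkB-alpha, the inhibitor that NF-kB itself induces, had a signal of 1112 in p65-/- cells and 3503 in p65+/+ cells, 3.15-fold lower, and all 5 of its compared probe sets were past 2-fold. Nfkbie, the gene of IkB-epsilon, had 56.8 in p65-/- cells and 239 in p65+/+ cells, at least 2.73-fold lower. Both were lower in tumour cells as well, Nfkbia at 1697 in p65-/- tumour cells and 4195 in p65+/+ tumour cells, and Nfkbie at 52 in p65-/- tumour cells and 225 in p65+/+ tumour cells. The nuclear IkB proteins Nfkbiz and Bcl3 were 4.64-fold lower and 2.3-fold lower before injection, Nfkbiz in 2 of 3 compared probe sets, but neither reached 2-fold in tumour cells. The precursor subunit Nfkb2 had 323 in p65-/- cells and 498 in p65+/+ cells, and Relb had 137 in p65-/- cells and 211 in p65+/+ cells, both under 2-fold. Relb was past 2-fold in tumour cells, at 90.3 in p65-/- tumour cells and 237 in p65+/+ tumour cells.

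The NF-kB target list held 36 compared genes, of which 18 were lower and 1 higher in p65-/- cells, with a median log2 difference of -0.97. After quantile normalization 17 were lower. In tumour cells 17 of 34 were lower, and 14 genes were lower in both pairs. Over all compared genes 18.1% were lower before injection and 5.62% in tumour cells. Some of the 14, such as Il6, Lif, Ptgs2, Saa3, Lcn2 and Ptx3, are counted again in other groups. The chemokine Ccl2, which draws monocytes, had a signal of 198 in p65-/- cells and 2671 in p65+/+ cells, 13.5-fold lower. Its neighbour Ccl7, also a monocyte attractant, had 73.8 in p65-/- cells and 426 in p65+/+ cells, at least 4.85-fold lower. Cxcl5, a neutrophil chemokine, had 5.4 in p65-/- cells, against 2277 in p65+/+ cells, at least 25.9-fold lower. All of them were lower in tumour cells too, Ccl2 at 506 in p65-/- tumour cells and 3339 in p65+/+ tumour cells, Ccl7 at 129.8 in p65-/- tumour cells and 734 in p65+/+ tumour cells and Cxcl5 at 100.2 in p65-/- tumour cells and 369 in p65+/+ tumour cells. Stromelysin (Mmp3), a matrix protease, had 612 in p65-/- cells and 6517 in p65+/+ cells, 10.7-fold lower. Ccl5, a T cell and monocyte chemokine, was the 1 target that was higher, with 297 in p65-/- cells and 104 in p65+/+ cells, 2.85-fold higher, and it was the other way round in tumour cells, with 109 in p65-/- tumour cells and 264 in p65+/+ tumour cells.

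NF-kB binds the kappa B site, a stretch of 10 bases with GGG at one end and CC at the other. The consensus searched here was GGGRNNYYCC, where R is A or G, Y is C or T and N is any base. Promoters here are the 250 bases before and 50 after a gene start in RefSeq (GRCm38.p6), searched on both strands. Of the 18 target genes that were lower, 13 had a promoter in the table, and 6 of these (46.2%) held a match to the NF-kB consensus (kappa B site). A gene was counted where any of its promoters held a match. Counted singly, 8.46% of all 32851 promoters held a match, which is a different unit from the shares of genes. Over all compared genes of the target list, lower or not, the share was 55.6% (15 of 27), so the match was not more frequent among the lower targets. The share was 12.2% over all compared genes with a promoter, 12.1% over the lower genes and 16% (48 of 300) over those lower in both pairs. It was 10.7% over those 8-fold or more lower and 11.96% over the higher genes. A match describes the letters in this window and is not evidence of binding. The windows below show the matches that lay before the gene start, with the match in capitals, 5′ to 3′ on the strand of the gene, since these are the genes of the inhibitors, cytokines and antioxidant enzyme described here.
Nfkbia (chr12:55492648-55492707, minus strand): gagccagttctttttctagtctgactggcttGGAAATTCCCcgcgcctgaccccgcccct
Nfkbie (chr17:45555569-45555628, plus strand): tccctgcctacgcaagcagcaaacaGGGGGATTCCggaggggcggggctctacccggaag
Il6 (chr5:30013045-30013104, plus strand): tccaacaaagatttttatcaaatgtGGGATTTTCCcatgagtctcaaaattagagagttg
Lif (chr11:4257365-4257424, plus strand): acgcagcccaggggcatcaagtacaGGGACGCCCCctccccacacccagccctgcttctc
Sod2 (chr17:13007731-13007790, plus strand): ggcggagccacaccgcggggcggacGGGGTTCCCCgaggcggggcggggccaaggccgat
The matches end between 20 bases (Nfkbia) and 169 bases (Lif) before the start, and that of Nfkbia reads as a kappa B site on the opposite strand.

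Upstream of NF-kB, 7 of 15 compared IKK kinases, adaptors and deubiquitinases were lower in p65-/- cells and none was higher (median -0.85), with 5 after quantile normalization and 1 lower in tumour cells. The median length of these genes was 52.2 kb, among the lengths at which more of all genes were lower, and its part in the count was not tested. Cyld, a deubiquitinase that restrains NF-kB, had 170.0 in p65-/- cells and 541 in p65+/+ cells, 3.18-fold lower in 2 of 4 compared probe sets. The kinase Map3k7 (TAK1) had 169.9 in p65-/- cells and 486 in p65+/+ cells, 2.86-fold lower in 3 of 5, and its partner Tab2 had 341 in p65-/- cells and 1059 in p65+/+ cells, 3.11-fold lower. Tab2 was level in tumour cells, at 1043 in p65-/- tumour cells and 1058 in p65+/+ tumour cells. Among receptors and adaptors of the TNF, IL-1 and Toll-like families, 3 of 20 were lower (median -0.12), a share under the 18.1% of all compared genes. The same genes were lower in tumour cells. These were both chains of the IL-1 receptor and the lipopolysaccharide co-receptor Cd14. The accessory chain Il1rap had 70.6 in p65-/- cells and 606 in p65+/+ cells, at least 6.91-fold lower in 3 of 4 compared probe sets. Il1r1, the ligand-binding chain, had 143 in p65-/- cells, against 501 in p65+/+ cells, 3.5-fold lower. For Cd14 the signal was 329.6 in p65-/- cells and 743 in p65+/+ cells, 2.25-fold lower, which was under 2-fold after quantile normalization (log2 -0.69).

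Cytokines of the IL-6 family signal through a shared gp130 receptor chain to JAK kinases and STAT3. Of the 13 compared genes of this pathway, 8 were lower in p65-/- cells and none was higher (median -1.43). After quantile normalization 6 were lower, and 3 were lower in both pairs. The median gene length was 42.8 kb. Il6 itself was under the floor in p65-/- cells, at 9.44, against 254 in p65+/+ cells, at least 2.89-fold lower. Its tumour signals were 68.1 in p65-/- tumour cells and 1124 in p65+/+ tumour cells. Lif, which sustains embryonic stem cells and acts on many tissues, had 206 in p65-/- cells, against 1487 in p65+/+ cells, 7.21-fold lower. The oncostatin M receptor Osmr had 49.1 in p65-/- cells and 903 in p65+/+ cells, at least 10.3-fold lower in 2 of 3 compared probe sets. Il6, Lif and Osmr were the genes lower in both pairs, Lif at 470.5 in p65-/- tumour cells and 2049 in p65+/+ tumour cells and Osmr at 556 in p65-/- tumour cells and 1122 in p65+/+ tumour cells. The kinases Jak1 and Jak2 were 2.81-fold lower and at least 4.68-fold lower before injection, but differed by under 2-fold in tumour cells, with 684 in p65-/- tumour cells and 740.1 in p65+/+ tumour cells for Jak1.

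Other cytokines of stromal cells differed as well. Il33, a nuclear alarmin of the IL-1 family, had 267 in p65-/- cells and 3476 in p65+/+ cells, 13.04-fold lower, and 145 in p65-/- tumour cells and 3443 in p65+/+ tumour cells. Kit ligand (Kitl), a growth factor for mast cells and blood stem cells, had 94.2 in p65-/- cells and 400.4 in p65+/+ cells, 4.25-fold lower in 2 of 3 compared probe sets. Both were lower in each pair of arrays. Il34, a ligand of the macrophage receptor Csf1r, was higher, with 274 in p65-/- cells and 105 in p65+/+ cells, 2.61-fold higher, and it was near the floor in tumour cells, at 89.3 in p65-/- tumour cells and 114 in p65+/+ tumour cells. Among the CXC chemokines, the platelet chemokine Ppbp had 22.6 in p65-/- cells and 1313 in p65+/+ cells, at least 14.96-fold lower. Cxcl12, the ligand of Cxcr4, had 281 in p65-/- cells and 969 in p65+/+ cells before injection, 3.45-fold lower in 2 of 3 compared probe sets. In tumour cells the order was reversed, with 2224 in p65-/- tumour cells and 203 in p65+/+ tumour cells.

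Prostaglandin E is made from arachidonic acid, which the phospholipase Pla2g4a releases, by cyclooxygenase 2 (Ptgs2) and a terminal synthase, Ptges. Of 10 compared genes of prostaglandin synthesis and reception, 6 were lower in p65-/- cells and none was higher (median -1.52), and 4 were lower in both pairs. The median was -0.63 over the genes above the floor on both arrays, and -0.38 when p65-/- tumour cells stood in for p65-/- cells before injection. Ptgs2 had a signal of 437 in p65-/- cells, against 4232 in p65+/+ cells, 9.67-fold lower. Ptges had 124 in p65-/- cells, against 1666 in p65+/+ cells, 13.5-fold lower, with 57.7 in p65-/- tumour cells and 2015 in p65+/+ tumour cells. The prostacyclin synthase Ptgis had 87.7 in p65-/- cells, against 1478 in p65+/+ cells, at least 16.8-fold lower. These enzymes were lower in both pairs, as was the prostaglandin E receptor Ptger4, with 86.1 in p65-/- cells and 299 in p65+/+ cells, at least 3.41-fold lower before injection. The phospholipase Pla2g4a had 191 in p65-/- cells, against 1279 in p65+/+ cells, 6.71-fold lower, but 1033 in p65-/- tumour cells and 1200.2 in p65+/+ tumour cells.

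Acute-phase and innate defence proteins are secreted during inflammation, mostly by the liver but also by fibroblasts. In p65-/- cells 8 of 10 compared were lower and none was higher (median -2.58), and 5 were lower in both pairs. Of these 5, Saa3, Lcn2 and Ptx3 are also counted among the NF-kB target genes above. Cp had 37.8 in p65-/- cells and 3156 in p65+/+ cells, at least 35.96-fold lower in 5 of 8 compared probe sets, and 172 in p65-/- tumour cells and 3716 in p65+/+ tumour cells. The serum amyloid gene Saa3 had 95.6 in p65-/- cells and 1380.0 in p65+/+ cells, 14.4-fold lower. Lipocalin 2 (Lcn2), which withholds iron from bacteria, had 11.9 in p65-/- cells and 839 in p65+/+ cells, at least 9.56-fold lower, and the pentraxin Ptx3 had 25.7 in p65-/- cells and 1003 in p65+/+ cells, at least 11.4-fold lower. Slpi, an inhibitor of leukocyte proteases, had 105 in p65-/- cells and 1574 in p65+/+ cells, 14.97-fold lower, and nearly the same values in tumour cells, at 103 in p65-/- tumour cells and 1556 in p65+/+ tumour cells. Haptoglobin (Hp) was at least 3.73-fold lower before injection, and near the floor in tumour cells, at 59.5 in p65-/- tumour cells and 107 in p65+/+ tumour cells.

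**Figure D4:**
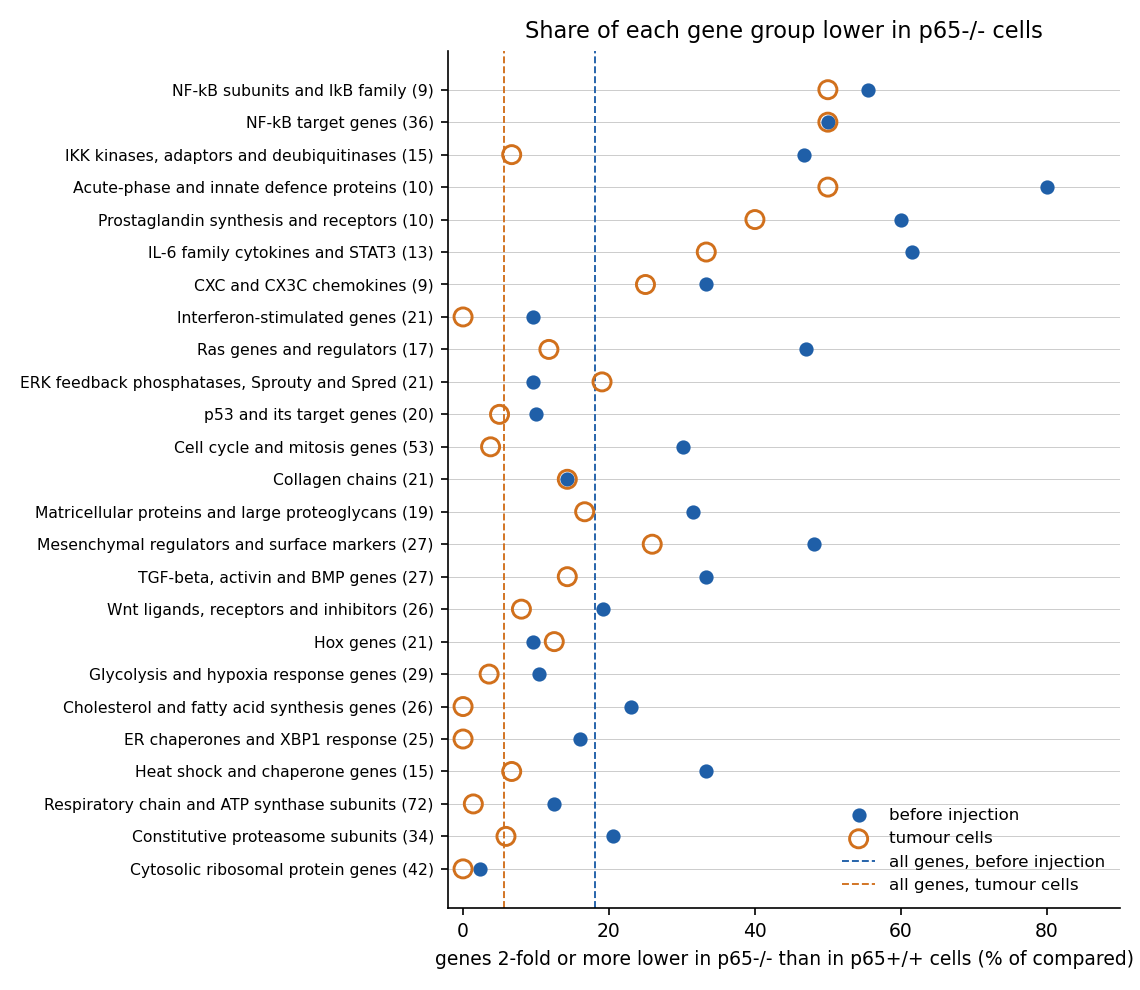
Share of the compared genes of each group (%) that were 2-fold or more lower in p65-/- than in p65+/+ cells, before injection (filled) and in tumour cells (open circles), with the number compared before injection in brackets. Dashed lines are the shares of all compared genes, 18.1% before injection and 5.62% in tumour cells. Acute-phase, IL-6 family and prostaglandin genes lie at 60% or more before injection, and ribosomal protein genes at the left edge.

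Interferon-stimulated genes answer antiviral signals. Of 21 compared, 2 were lower and 1 higher, with a median of 0.35. The antiviral genes Ifit2 and Eif2ak2 were under the floor in p65-/- cells, at 71.2 and 62.4, against 219 and 198 in p65+/+ cells, and 1 of the 3 compared probe sets of Eif2ak2 was past 2-fold. Ifitm1, whose protein restricts entry of viruses, had 2708 in p65-/- cells and 69.8 in p65+/+ cells, at least 29.00-fold higher, and was under the floor on both tumour arrays. Among MHC class I, antigen processing and immunoproteasome genes 2 of 12 were lower, the chaperones Canx in 2 of 3 and Pdia3 in 1 of 2 compared probe sets, and none after quantile normalization. The T cell costimulator Tnfsf9 (4-1BB ligand) had 375 in p65-/- cells and 123 in p65+/+ cells, 3.05-fold higher, and was higher in tumour cells too, with 213 in p65-/- tumour cells and 39.5 in p65+/+ tumour cells.

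Oncogenic HRAS acts through RAF kinases and ERK, and GTPase-activating proteins such as Rasa1 switch Ras off. Of 17 compared Ras genes and regulators, 8 were lower in p65-/- cells and none was higher (median -0.46), with the same counts and a median of -0.04 after quantile normalization. The tumour pair had 2 lower, and the median gene length was 74.8 kb, whose part was not tested. Rasa1 had 128 in p65-/- cells, against 1425 in p65+/+ cells, 11.2-fold lower in all 3 compared probe sets, and 339 in p65-/- tumour cells and 1408 in p65+/+ tumour cells. Rasa2, which has the same activity, had 72.9 in p65-/- cells, against 564 in p65+/+ cells, at least 6.42-fold lower before injection but 339 in p65-/- tumour cells and 366 in p65+/+ tumour cells. The exchange factor Sos1 had 160.4 in p65-/- cells and 661 in p65+/+ cells, 4.12-fold lower in 2 of 4 compared probe sets, and the scaffold Shoc2 had 93.6 in p65-/- cells, against 454 in p65+/+ cells, 4.86-fold lower. Both differed by under 2-fold in tumour cells.

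Feedback inhibitors of ERK are induced by the pathway itself. Of 21 compared phosphatases, Sprouty and Spred genes, 2 were lower and 2 higher (median 0.09). After quantile normalization none was lower and 4 were higher. Dusp4, a nuclear ERK phosphatase, had 755 in p65-/- cells, against 244 in p65+/+ cells, 3.09-fold higher, and Spry1 had 291 in p65-/- cells, against 57.6 in p65+/+ cells, at least 3.12-fold higher. Spred1 had 444 in p65-/- cells and 1151 in p65+/+ cells, 2.59-fold lower in all 6 compared probe sets but under 2-fold after quantile normalization (log2 -0.90). Upstream, the EGF receptor ligand epiregulin (Ereg) had 149 in p65-/- cells and 3205 in p65+/+ cells, 21.4-fold lower, and 319.9 in p65-/- tumour cells and 4659 in p65+/+ tumour cells. Among AP-1 and immediate early genes 2 of 25 were lower, of which Egr3 had 246 in p65-/- cells and 1152 in p65+/+ cells, 4.68-fold lower in 1 of 2 compared probe sets and was lower in tumour cells too.

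The kinase mTOR and its partner proteins couple growth to nutrients and growth factors. Rictor, the defining subunit of mTOR complex 2, had 95.05 in p65-/- cells and 1415 in p65+/+ cells, 14.9-fold lower in all 5 compared probe sets, and 522 in p65-/- tumour cells and 1369 in p65+/+ tumour cells. The PI3K subunits Pik3ca and Pik3r1 were 3.9-fold lower and 3.42-fold lower before injection, Pik3ca in 2 of 5 and Pik3r1 in 2 of 4 compared probe sets, and were past 2-fold in tumour cells as well. In all 6 of 18 compared genes of this group were lower and none was higher, 4 of them in both pairs. The median of the group was -0.04 before injection, near that of all genes (-0.02), and 0.07 in tumour cells. After quantile normalization 5 were lower and 1 higher, with a median of 0.38, against 0.24 for all genes. The median length of the group was 75.4 kb, and its part was not tested.

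The tumour suppressor p53 arrests damaged or stressed cells through its target genes. Of 20 compared, 6 were higher and 2 lower in p65-/- cells (median 0.21), with 8 higher after quantile normalization. Cdkn1a, the p21 inhibitor of cyclin-dependent kinases, had 1533 in p65-/- cells and 375 in p65+/+ cells, 4.09-fold higher in both compared probe sets. Phlda3, an inhibitor of Akt, had 1634 in p65-/- cells and 354 in p65+/+ cells, 4.62-fold higher. The RNA-binding protein gene Zmat3 had 1065 in p65-/- cells, against 353 in p65+/+ cells, 3.02-fold higher. These genes were higher in tumour cells too, with 1272 in p65-/- tumour cells and 393 in p65+/+ tumour cells for Cdkn1a, 1421 in p65-/- tumour cells and 338 in p65+/+ tumour cells for Phlda3 and 1175 in p65-/- tumour cells and 426 in p65+/+ tumour cells for Zmat3. Gadd45a, which responds to DNA damage, was lower, with 72.1 in p65-/- cells, against 252 in p65+/+ cells, at least 2.87-fold lower.

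The Cdkn2a locus encodes p16INK4a and p19ARF, which restrain the cell cycle and stabilise p53, and Cdkn2b beside it encodes p15INK4b. These genes and Mtap beside them were under the floor on both p65-/- arrays, before and after tumour growth, and above it on both p65+/+ arrays. Mtap, an enzyme of methionine salvage, had 27.8 in p65-/- cells and 2059 in p65+/+ cells, at least 23.5-fold lower in all 4 compared probe sets. Cdkn2a had 22.1 in p65-/- cells and 278 in p65+/+ cells, at least 3.17-fold lower, and Cdkn2b had 29.3 in p65-/- cells and 1189.7 in p65+/+ cells, at least 13.6-fold lower. In tumour cells the signals were 19.2 in p65-/- tumour cells and 2580.0 in p65+/+ tumour cells for Mtap, 14.2 in p65-/- tumour cells and 372 in p65+/+ tumour cells for Cdkn2a and 28.4 in p65-/- tumour cells and 917 in p65+/+ tumour cells for Cdkn2b. In the RefSeq annotation of GRCm38.p6 these genes span positions 89137370 to 89311032 of chromosome 4. The nearest measured genes above the floor in p65-/- cells were Klhl9 on one side and Zfp352 on the other. Zfp352 was near the floor, with 104 in p65-/- cells and 90.2 in p65+/+ cells, so it does not mark an end of the stretch. Klhl9, an adaptor of a ubiquitin ligase, had 260.4 in p65-/- cells and 946 in p65+/+ cells, and 1046 and 948 in the tumour cells of these genotypes. The interferon alpha genes between Klhl9 and Mtap, and Dmrta1 beyond Cdkn2b, were under the floor on both pre-injection arrays, so they do not mark the ends of the stretch. Whether the DNA of these genes is present was not analysed here. The CDK inhibitor Cdkn2c on the same chromosome had 883 in p65-/- cells and 1973 in p65+/+ cells, 2.23-fold lower, and Cdkn1b (p27) had 160.3 in p65-/- cells and 474 in p65+/+ cells, 2.96-fold lower in 1 of 2 compared probe sets. Cdkn2c was under 2-fold after quantile normalization (log2 -0.73).

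**Figure D5:**
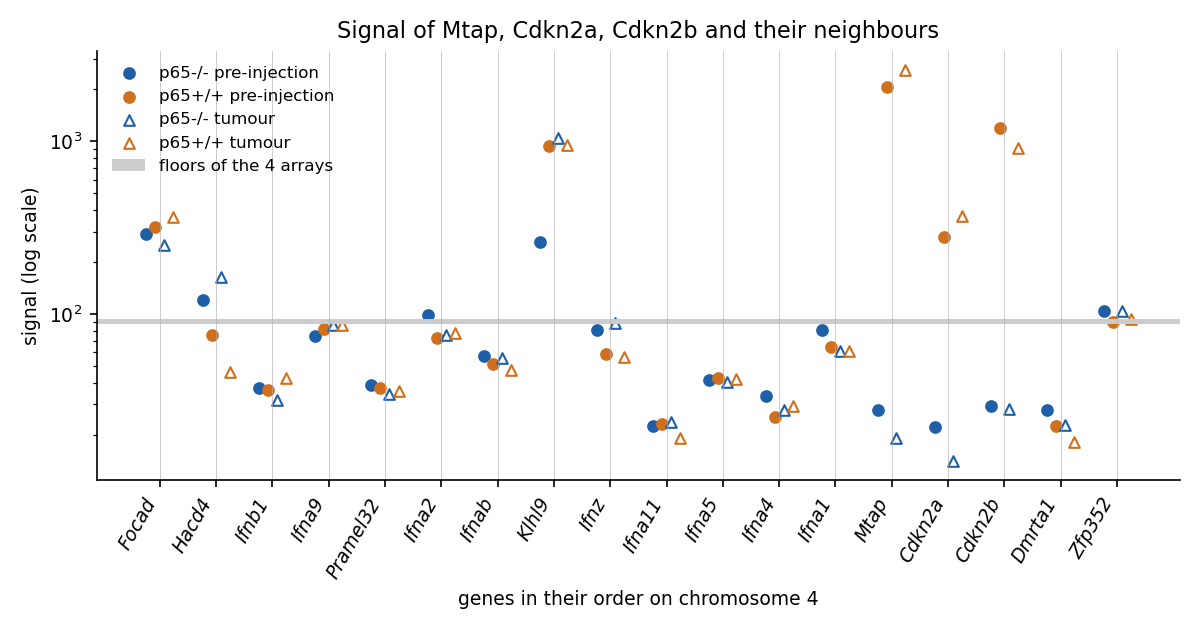
Signal (log scale) of genes in their order along chromosome 4 from Focad to Zfp352, in p65-/- and p65+/+ cells before injection (circles) and in tumour cells (triangles), with 1 array for each point. The grey band is the range of the floors of the 4 arrays. Mtap, Cdkn2a and Cdkn2b lie below the band in both p65-/- samples and above it in both p65+/+ samples, while Klhl9 lies above it in all 4.

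Genes of the cell cycle mark dividing cells. Of 53 compared, 16 were lower and 1 higher in p65-/- cells (median -0.12). After quantile normalization 11 were lower and 7 higher, and the tumour pair had 2 lower. The mitotic checkpoint kinase Bub1 had 161 in p65-/- cells and 1339 in p65+/+ cells, 8.32-fold lower, and 793 in p65-/- tumour cells and 1015 in p65+/+ tumour cells. Mki67, the Ki-67 proliferation marker, had 146 in p65-/- cells, against 1056 in p65+/+ cells, 7.25-fold lower, and the spindle motor Kif11 had 122 in p65-/- cells, against 593 in p65+/+ cells, 4.86-fold lower in all 3 compared probe sets. Both differed by under 2-fold in tumour cells. The cyclin Ccne2, which drives entry into S phase, was the exception among the genes named, with 34.1 in p65-/- cells, against 385 in p65+/+ cells, at least 4.39-fold lower and 129 in p65-/- tumour cells and 629 in p65+/+ tumour cells. Among inhibitors of apoptosis, Bcl2 family genes and caspases 8 of 26 were lower and 1 higher (median -0.32, median length 20.6 kb). The median was 0.12 after quantile normalization. Xiap, which blocks caspases, had 109 in p65-/- cells and 995 in p65+/+ cells, 9.14-fold lower in 2 of 3 compared probe sets, and the inflammatory caspase Casp4 had 30.5 in p65-/- cells, against 375 in p65+/+ cells, at least 4.27-fold lower. Casp4 was lower in tumour cells too, as was the apoptosis inhibitor Birc3, which had 84.2 in p65-/- cells, against 387 in p65+/+ cells, at least 4.41-fold lower before injection in 1 of 2 compared probe sets.

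Dcn had the largest decrease of any compared gene. Its signal was 59.4 in p65-/- cells, against 6673 in p65+/+ cells, at least 76.03-fold lower, in 1 of 2 compared probe sets, and its tumour signals were 42.6 in p65-/- tumour cells and 6066 in p65+/+ tumour cells. Of the other proteoglycans of its family, those above the floor on both arrays differed by under 2-fold, with biglycan (Bgn) at 6863 in p65-/- cells and 7059 in p65+/+ cells. Lumican (Lum), an organiser of collagen fibrils, was under the floor in p65-/- cells, with 30.1 in p65-/- cells and 169 in p65+/+ cells before injection, and it was at least 23.2-fold lower in tumour cells, with 27.7 in p65-/- tumour cells and 2151 in p65+/+ tumour cells. Among collagen chains 3 of 21 were lower, a share under the 18.1% of all compared genes, and 2 were higher (median length 114 kb). The fibril-associated chain Col12a1 had 114 in p65-/- cells, against 1282 in p65+/+ cells, 11.3-fold lower, and 475 in p65-/- tumour cells and 2066 in p65+/+ tumour cells. Col11a1 had 47.8 in p65-/- cells, against 569 in p65+/+ cells, at least 6.48-fold lower, but was level in tumour cells, at 333 in p65-/- tumour cells and 345 in p65+/+ tumour cells. The chains Col6a3 and Col4a2 were 2.08-fold higher and 2.01-fold higher in p65-/- cells, and 2-fold or more higher in tumour cells as well.

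Matricellular proteins sit in the matrix and act on cells rather than build fibres. Of 19 compared with the large proteoglycans, 6 were lower and 2 higher (median length 31.8 kb). Ccn3 had 39.7 in p65-/- cells and 1066 in p65+/+ cells, at least 12.1-fold lower, and 399 in p65-/- tumour cells and 358 in p65+/+ tumour cells. Versican (Vcan) had 184 in p65-/- cells and 1322 in p65+/+ cells, 7.21-fold lower in all 3 compared probe sets, and tenascin C (Tnc) had 347 in p65-/- cells, against 1429 in p65+/+ cells, 4.12-fold lower in 1 of 2. Versican and tenascin C were lower in tumour cells too, Tnc at 956 in p65-/- tumour cells and 4859 in p65+/+ tumour cells. Ccn2 (CTGF), a target of YAP and TGF-beta signals, was higher, with 1102 in p65-/- cells and 270.1 in p65+/+ cells, 4.08-fold higher and 4283 in p65-/- tumour cells and 992 in p65+/+ tumour cells. Thrombospondin 1 (Thbs1) was 2.53-fold higher before injection and under 2-fold in tumour cells. The collagen crosslinking enzymes differed in opposite directions. Lox had 699 in p65-/- cells, against 3238 in p65+/+ cells, 4.63-fold lower, while Loxl3 had 998 in p65-/- cells, against 243 in p65+/+ cells, 4.11-fold higher. In tumour cells Lox differed by under 2-fold and Loxl3 was again higher, with 1051 in p65-/- tumour cells and 171 in p65+/+ tumour cells. Fibulin 2 (Fbln2) had 178 in p65-/- cells and 768 in p65+/+ cells before injection, 4.32-fold lower, and 2573 in p65-/- tumour cells and 396 in p65+/+ tumour cells, 6.5-fold higher.

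Matrix proteases cut collagens and other matrix proteins. Beside Mmp3, the collagenase Mmp13 had 11.6 in p65-/- cells, against 511 in p65+/+ cells, at least 5.82-fold lower, and Mmp10 had 350.0 in p65-/- cells, against 1131 in p65+/+ cells, 3.23-fold lower. Mmp13 was under the floor on both tumour arrays, while Mmp10 was lower there too. The protease inhibitor Timp3 was 2.1-fold lower in 1 of 4 compared probe sets, under 2-fold after quantile normalization (log2 -0.63), and 2.68-fold higher in tumour cells. Thrombomodulin (Thbd), a surface receptor that turns thrombin to an anticoagulant role, had 26.01 in p65-/- cells and 2031 in p65+/+ cells, at least 23.1-fold lower, and 16.9 in p65-/- tumour cells and 3249.9 in p65+/+ tumour cells. Its partner, the protein C receptor Procr, had 318 in p65-/- cells, against 837 in p65+/+ cells, 2.63-fold lower, and was under 2-fold after quantile normalization (log2 -0.92).

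Mesenchymal regulators and surface markers included 13 of 27 lower and no higher genes in p65-/- cells (median -0.83, median length 36.1 kb). After quantile normalization 11 were lower and 2 higher, and 5 were lower in both pairs. Thy1, a surface marker of fibroblasts, had 88.6 in p65-/- cells and 1126 in p65+/+ cells, 12.7-fold lower, and 409 in p65-/- tumour cells and 993 in p65+/+ tumour cells. The PDGF receptor Pdgfra had 455 in p65-/- cells and 1557 in p65+/+ cells, 3.42-fold lower in 2 of 3 compared probe sets. The forkhead factor Foxf1 had 56.9 in p65-/- cells, against 755 in p65+/+ cells, at least 8.6-fold lower in 1 of 2. All were lower in tumour cells too. The homeobox gene Prrx1 was 3.36-fold lower in all 5 compared probe sets, and just under 2-fold in tumour cells. Cdh11, a cadherin of mesenchymal cells, had 56.8 in p65-/- cells and 585 in p65+/+ cells before injection, at least 6.67-fold lower, and 812 in p65-/- tumour cells and 13.9 in p65+/+ tumour cells, at least 8.77-fold higher. The smooth muscle genes Myl9 and Cnn1 were lower in both pairs, Myl9 at 110.1 in p65-/- cells and 326 in p65+/+ cells before injection. Tagln, another actin-binding protein of smooth muscle, was 2.78-fold lower before injection, just under 2-fold after quantile normalization, and 4.46-fold higher in tumour cells, at 1859.7 in p65-/- tumour cells and 417 in p65+/+ tumour cells.

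The labelled cell type was checked against marker genes. Of 15 fibroblast markers, 12 were above the floor in p65-/- and 14 in p65+/+ cells, with summed signals of 57466 and 62969.9 in the same order. The intermediate filament vimentin (Vim) had 12482 in p65-/- cells and 10047 in p65+/+ cells, and the collagen chain Col1a2 had 7989 in p65-/- cells and 7858 in p65+/+ cells. Of the 14 fibroblast markers compared, 3 were 2-fold or more lower in p65-/- cells in both pairs, and these were Dcn, Thy1 and Pdgfra, described above (median length of the list 30.9 kb). Of 21 macrophage and lymphocyte markers, 7 were above the floor in p65-/- and 6 in p65+/+ cells. The highest signal among them was 671 in p65-/- cells and 743 in p65+/+ cells. The latter was Cd14, which had 329.6 in p65-/- cells. Ptprc, Adgre1, Itgam and Cd68 were among the markers under the floor in both genotypes. The markers above the floor other than Cd14 are not named here, so the named ones do not show that such cells were absent. The summed signals of the 21 markers were 2837 in p65-/- and 2849 in p65+/+ cells. Endothelial markers were above the floor for 4 and 3 of 13 in p65-/- and p65+/+ cells, with sums of 1154 and 1645. The VEGF receptor Flt1, 1 of them, had 169.8 in p65-/- cells and 729.9 in p65+/+ cells, 4.3-fold lower, while Cdh5 and Kdr were under the floor in both. Epithelial markers above the floor numbered 7 in p65-/- and 3 in p65+/+ cells of 15, with sums of 1565 and 1133. Their highest signals were 338 in p65-/- and 229 in p65+/+ cells. The keratin Krt19 had 338 in p65-/- cells, against 49.8 in p65+/+ cells, at least 3.62-fold higher, and 2194 in p65-/- tumour cells and 45.6 in p65+/+ tumour cells, while Epcam and Cdh1 were under the floor in both genotypes. Muscle and fat cell markers above the floor numbered 6 in p65-/- and 7 in p65+/+ cells of 13, with sums of 1458 and 1265. In such bulk samples, fewer cells of a type and less RNA per cell cannot be told apart.

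Secreted growth factors and their binding proteins held some of the largest values in both directions. Igfbp4, which binds insulin-like growth factors, had 3691 in p65-/- cells and 320.4 in p65+/+ cells, 11.5-fold higher in all 6 compared probe sets, and 3822 in p65-/- tumour cells and 1890.0 in p65+/+ tumour cells. Igfbp6 had 3044 in p65-/- cells and 182 in p65+/+ cells, 16.7-fold higher before injection, but 82.5 in p65-/- tumour cells and 434 in p65+/+ tumour cells. Fgf7, a growth factor for epithelia, had 254 in p65-/- cells and 3319 in p65+/+ cells, 13.1-fold lower, and was 2.2-fold lower in tumour cells. Hepatocyte growth factor (Hgf) had 51.1 in p65-/- cells, against 302 in p65+/+ cells, at least 3.44-fold lower in 2 of 3 compared probe sets, and angiopoietin 1 (Angpt1) had 19.8 in p65-/- cells and 345 in p65+/+ cells, at least 3.94-fold lower in 1 of 2. All of Fgf7, Hgf and Angpt1 were lower in both pairs. Vegfa, the main angiogenic factor, had 242 in p65-/- cells, against 936 in p65+/+ cells, 3.86-fold lower, and was under 2-fold in tumour cells. Its co-receptor Nrp1 had 48.5 in p65-/- cells and 736 in p65+/+ cells before injection, at least 8.39-fold lower in 3 of 4 compared probe sets, and 786 in p65-/- tumour cells and 376 in p65+/+ tumour cells, 2.09-fold higher.

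Among TGF-beta, activin and BMP genes 9 of 27 were lower and 3 higher in p65-/- cells (median -0.31, median length 27.4 kb). The median was 0.19 after quantile normalization. The lower genes included receptors. Bmpr1a had 190.3 in p65-/- cells and 967 in p65+/+ cells, 5.08-fold lower in all 4 compared probe sets, and 836 in p65-/- tumour cells and 906 in p65+/+ tumour cells. The BMP antagonist gremlin (Grem1) had 610.1 in p65-/- cells, against 2420.1 in p65+/+ cells, 3.97-fold lower, and was 3.25-fold lower in tumour cells. The ligand Bmp2 had 118 in p65-/- cells and 608 in p65+/+ cells, 5.17-fold lower. The activin subunit Inhbb had 255 in p65-/- cells, against 57.6 in p65+/+ cells, at least 2.73-fold higher in 1 of 2 compared probe sets, and 2085 in p65-/- tumour cells and 28.5 in p65+/+ tumour cells, and the activin antagonist Fstl3 had 248 in p65-/- cells, against 43.7 in p65+/+ cells, at least 2.65-fold higher. Of the Wnt genes, 5 of 26 were lower, close to the 18.1% of all compared genes, with a median of -0.07, 3 lower after quantile normalization and a median length of 31.5 kb. Among them the ligand Wnt5a had 66.3 in p65-/- cells, against 891 in p65+/+ cells, at least 10.2-fold lower in 2 of 3 compared probe sets and 116 in p65-/- tumour cells and 874 in p65+/+ tumour cells. The inhibitor Dkk3 was 2.73-fold lower before injection and 3.17-fold higher in tumour cells. The guidance factor Sema3a had 107 in p65-/- cells and 815 in p65+/+ cells, 7.62-fold lower in all 3 compared probe sets, and was at least 6.08-fold lower in tumour cells.

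Homeobox and retinoid genes differed in both directions. Hoxa11, a patterning gene of limbs and kidneys, had 808 in p65-/- cells and 18.1 in p65+/+ cells, at least 8.65-fold higher, and 924 in p65-/- tumour cells and 16.9 in p65+/+ tumour cells. Hoxa10 had 322 in p65-/- cells and 8.06 in p65+/+ cells, at least 3.45-fold higher in 1 of 2 compared probe sets, and Hoxd8 had 188 in p65-/- cells, against 14.2 in p65+/+ cells, at least 2.02-fold higher in 1 of 2. Hoxb2 and Hoxb6 lay on the other side, with 31.6 in p65-/- cells, against 248 in p65+/+ cells, at least 2.82-fold lower for Hoxb2 and 23.2 in p65-/- cells, against 199 in p65+/+ cells, at least 2.27-fold lower for Hoxb6. These differences were past 2-fold in the same direction in tumour cells. Over the Hox list 4 were higher and 2 lower of 21 compared. Hox genes are set by body position, and the body part that each line came from was not stated. The retinoic acid binding protein Crabp1 had 28.6 in p65-/- cells and 3372 in p65+/+ cells, at least 38.4-fold lower, and 676 in p65-/- tumour cells and 2672 in p65+/+ tumour cells. Crabp2 was higher, with 922 in p65-/- cells and 383 in p65+/+ cells, 2.41-fold higher, and higher in tumour cells too. Rdh10, which makes retinaldehyde, was 2.87-fold lower before injection and 3.35-fold higher in tumour cells.

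Enzymes of metabolism and detoxification gave mixed counts. Of 25 compared NRF2 targets and xenobiotic enzymes 5 were lower and 3 higher, and after quantile normalization 1 was lower and 4 higher. Nfe2l2, Me1, Cbr1 and Gclc were among the lower ones, all under 2-fold after quantile normalization. Of 16 superoxide dismutases, metallothioneins and peroxidases 4 were lower and none was higher, with 2 lower after quantile normalization. Ephx1, an epoxide hydrolase, had 1561 in p65-/- cells, against 117 in p65+/+ cells, 13.3-fold higher, and 1607 in p65-/- tumour cells and 162 in p65+/+ tumour cells. The glutathione transferase Gstm2 had 536 in p65-/- cells, against 117 in p65+/+ cells, 4.56-fold higher, and was 2.51-fold higher in tumour cells. Among superoxide dismutases and metallothioneins, the extracellular Sod3 had 42.8 in p65-/- cells and 786 in p65+/+ cells, at least 8.96-fold lower in both compared probe sets, the mitochondrial Sod2 had 1441 in p65-/- cells and 3051 in p65+/+ cells, 2.12-fold lower in 3 of 4, and Mt2 had 501 in p65-/- cells, against 2385 in p65+/+ cells, 4.76-fold lower. These were lower in both pairs, Sod3 at 58.2 in p65-/- tumour cells and 1493 in p65+/+ tumour cells, while Sod2 was under 2-fold after quantile normalization (log2 -0.72). Cyp1b1, a monooxygenase, was at least 3.29-fold lower before injection in 1 of 3 compared probe sets and at least 8.29-fold higher in tumour cells. Glycolysis and hypoxia genes were lower in 3 and higher in 3 of 29 cases (median length 22.8 kb). The muscle enolase Eno3 had 1038 in p65-/- cells and 157 in p65+/+ cells, 6.62-fold higher, and was under 2-fold in tumour cells. Epas1 (HIF-2 alpha) had 28.04 in p65-/- cells, against 559 in p65+/+ cells, at least 6.37-fold lower in 1 of 2 compared probe sets, and was 4.25-fold lower in tumour cells. Hif1a had 903 in p65-/- cells, against 2686 in p65+/+ cells, 2.97-fold lower in all 3, but 2757 in p65-/- tumour cells and 2856 in p65+/+ tumour cells.

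Chaperones fold proteins in the cytosol and the endoplasmic reticulum (ER). Of 15 heat shock and chaperone genes 5 were lower (median -0.66), and 1 in tumour cells. Hsp90aa1, the inducible cytosolic HSP90, had 1639.7 in p65-/- cells and 6185 in p65+/+ cells, 3.77-fold lower in all 3 compared probe sets, and 4718 in p65-/- tumour cells and 7056 in p65+/+ tumour cells. The small heat shock gene Hspb1 had 179.6 in p65-/- cells, against 1107 in p65+/+ cells, 6.16-fold lower and was the 1 gene of the list lower in both pairs. Among ER chaperones and XBP1 response genes 4 of 25 were lower, close to the 18.1% of all compared genes. After quantile normalization 2 were lower, and in tumour cells none. Hsp90b1 (GRP94) had 1370.0 in p65-/- cells, against 5134 in p65+/+ cells, 3.75-fold lower, and 4642 in p65-/- tumour cells and 5819.8 in p65+/+ tumour cells. In cholesterol and fatty acid synthesis 6 of 26 were lower and 1 higher, with 3 lower after quantile normalization and none in tumour cells. The first count is not far from the 18.1% of all compared genes, which takes in genes near the floor. Neither this group nor that of the ER chaperones was set beside genes of like signal. The isomerase Idi1 had 343 in p65-/- cells and 1759 in p65+/+ cells, 5.13-fold lower in both compared probe sets. Cebpb, a factor of inflammation and fat cell formation that stood in the list of amino acid stress targets, had 589 in p65-/- cells, against 1985 in p65+/+ cells, 3.37-fold lower, and was lower in tumour cells too, at 556 in p65-/- tumour cells and 1981 in p65+/+ tumour cells. Atf5 of the same list was 2.97-fold higher before injection and 2.04-fold lower in tumour cells.

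Subunits of large complexes are usually expressed at a steady level. Of 42 cytosolic ribosomal protein genes 1 was lower, Rps24, in 1 of 5 compared probe sets, and the median was -0.02, or 0.06 after quantile normalization. Respiratory chain and ATP synthase subunits were lower in 9 of 72 cases, under the 18.1% of all compared genes, with a median of -0.13. After quantile normalization 1 was lower and the median was 0.21. For constitutive proteasome subunits the count was 7 of 34, with a median of -0.26, and 3 after quantile normalization, where the median was 0.07. The first count is close to the share of all compared genes, which takes in genes near the floor. Among genes with a p65+/+ tumour signal of 9 to 10 on the log2 scale, 35.8% were lower before injection. These groups were not set beside genes of like signal. Psmc6, an ATPase of the regulatory particle, had 269.5 in p65-/- cells, against 1897 in p65+/+ cells, 7.04-fold lower in 2 of 3 compared probe sets, and 950.4 in p65-/- tumour cells and 2645 in p65+/+ tumour cells.

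The remaining genes with large differences in every compared probe set belong to varied functions. On the lower side, the redox protein gene Prxl2a had 104 in p65-/- cells and 2213 in p65+/+ cells, 21.2-fold lower, and 31.6 in p65-/- tumour cells and 3485 in p65+/+ tumour cells. The lipid phosphatase Plpp3 had 187 in p65-/- cells, against 2181 in p65+/+ cells, 11.7-fold lower, and the orphan receptor Gpr149 had 216 in p65-/- cells and 2433 in p65+/+ cells, 11.2-fold lower. All of them were lower in tumour cells, by more than 4-fold. Other decreases did not reach 2-fold in tumour cells. The lysosomal membrane protein Tmem106b had 102 in p65-/- cells and 1235 in p65+/+ cells, 12.2-fold lower, but 736 in p65-/- tumour cells and 984 in p65+/+ tumour cells. The cofactor Zfpm2 had 132 in p65-/- cells, against 1355 in p65+/+ cells, 10.2-fold lower, and the phosphatase Mtm1 had 349.9 in p65-/- cells and 3919 in p65+/+ cells, 11.2-fold lower. On the higher side, the neurofilament gene Nefl had 4178 in p65-/- cells and 894 in p65+/+ cells, 4.67-fold higher, and was under the floor on both tumour arrays. The proteoglycan Cspg4 (NG2) had 609 in p65-/- cells, against 143 in p65+/+ cells, 4.25-fold higher, and the tubulin modifier Ttll5 had 551 in p65-/- cells, against 110.3 in p65+/+ cells, 4.99-fold higher. Of these, Ttll5 was past 2-fold in tumour cells. The potassium channel Kcnn4 and the sulfotransferase Chst15 were 2.96-fold higher and 3.33-fold higher before injection, but 2.42-fold lower and at least 2.23-fold lower in tumour cells. Clusterin (Clu), a secreted chaperone, had 629 in p65-/- cells and 219.7 in p65+/+ cells before injection, 2.87-fold higher in all 4 compared probe sets, and 86.9 in p65-/- tumour cells and 1261 in p65+/+ tumour cells, at least 13.6-fold lower.

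The reading of a gene depended on its probe sets. Of the 5541 genes with 2 or more compared probe sets, 1778 had at least 1 probe set past 2-fold lower, and in 625 (35.2%) all compared probe sets were. On the higher side these were 146 and 29 genes (19.9%), and 5 genes had probe sets past 2-fold in both directions. The standard deviation of the log2 difference among probe sets of a gene was 0.481 before injection, against 0.321 in the tumour pair.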

How the data were processed

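RNA from 4 samples of fibroblasts was measured on 1 array each. The RNA was extracted with Trizol, and biotin-labelled target was made from 6 ug by the array maker's protocol, per the labels. For each probe set the authors deposited a signal intensity on a linear scale. How they summarised and scaled the probes was not stated in the labels or headers. Intensities of single scanner cells, not normalized per the file headers, served only as a check of the arrays, and a table of ratios was not used.

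Signals under 1 were set to 1 and log2 differences taken, p65-/- minus p65+/+, with no further normalization. Probe sets were named with the platform annotation of 2016, and 18029 of 18193 genes had a length in RefSeq (GRCm38.p6). Each gene was read from the probe set, among those of that gene only, whose signal averaged highest on the 4 arrays, with sets marked for cross-hybridization only where it had no other. Samples were grouped by their source labels. Each array had 1 sample, so no p-value was computed, and the number of arrays limits precision.

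The members, 1343 entries in 55 gene lists, and the alternatives were chosen with earlier results of these data known. Lists share members, so their counts overlap. Named genes were Rela, the 12 largest decreases and increases with every compared probe set (at least 2) past 2-fold and both arrays above the floor, and up to 6 members per list and direction. Members of lists of 12 or fewer and cell type markers could all be named. Alternatives were quantile normalization, scaling to the 75th percentile, a 70th percentile floor, both arrays above the floor, the mean of probe sets, and the p65-/- tumour array standing in for the one before injection. Counting was tried on simulated signals, with large shifts of strongly expressed genes and little noise. That checks the code only, not calls near the floor or near 2-fold. Python 3.11.15, numpy 2.4.6 and pandas 2.3.3 were used.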

Additional observations from a re-analysis of the deposited data

Results flagged for a closer look

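A set of genes differed between p65-/- and p65+/+ cells by 2-fold or more in 1 direction before injection and by 2-fold or more in the other direction in tumour cells. Over all genes compared in both pairs there were 42 such genes among the lower and 17 among the higher ones, and those named in the report are listed with their log2 differences, p65-/- minus p65+/+. Lower before injection and higher in tumour cells were the secreted or matrix proteins Cxcl12 (-1.79 before injection, 3.46 in tumour cells), Fbln2 (-2.11 before injection, 2.70 in tumour cells), Timp3 (-1.07 before injection, 1.42 in tumour cells) and Dkk3 (-1.45 before injection, 1.66 in tumour cells). The same held for the surface and cytoskeletal proteins Cdh11 (-2.74 before injection, 3.13 in tumour cells), Tagln (-1.47 before injection, 2.16 in tumour cells) and Nrp1 (-3.07 before injection, 1.06 in tumour cells), and for the enzymes Rdh10 (-1.52 before injection, 1.75 in tumour cells) and Cyp1b1 (-1.72 before injection, 3.05 in tumour cells). Higher before injection and lower in tumour cells were the secreted proteins Clu (1.52 before injection, -3.77 in tumour cells), Ccl5 (1.51 before injection, -1.27 in tumour cells) and Igfbp6 (4.06 before injection, -2.23 in tumour cells). So were Chst15 (1.74 before injection, -1.16 in tumour cells), Kcnn4 (1.56 before injection, -1.27 in tumour cells) and Atf5 (1.57 before injection, -1.03 in tumour cells), a sulfotransferase, a potassium channel and a stress response factor. The difference between the 2 pairs was not tested, since each group has 1 array.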

How the results depend on the processing

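The deposited signals gave 2283 lower and 266 higher genes in p65-/- cells, and lower genes outnumbered higher genes under each of the 6 alternatives. Scaling each array to the same 75th percentile gave 1506 lower and 803 higher genes, with lower genes 65.2% of those counted and the median of all genes at 0.35. Quantile normalization gave 897 higher genes, and lower genes made up 63.5%, against 89.6% in the deposited signals. A floor at the 70th percentile left 8942 genes and gave 154 higher. The mean over all probe sets of a gene kept both counts within 1.5 times. With both arrays required to reach the floor, 8 NF-kB target genes were lower in place of 18, since genes under the floor in p65-/- cells then drop out. The other alternatives gave 14 to 18. Over the 6 alternatives the median log2 difference ran from -1.20 to -0.63 for NF-kB subunits and IkB genes, from -0.80 to -0.021 for their upstream kinases and adaptors, from -0.995 to -0.60 for NF-kB target genes, from -1.20 to -0.20 for IL-6 family genes, from -1.52 to -0.38 for prostaglandin genes, from -2.38 to -1.46 for acute-phase proteins, from -0.52 to -0.043 for Ras genes, from -0.82 to -0.16 for mesenchymal genes and from -0.73 to -0.28 for heat shock genes. Some further groups kept their sign too, such as p53 target genes (0.18 to 0.59) and CDK inhibitors with the Cdkn2a region (-1.48 to -0.15). Others crossed 0. The median ran from -0.11 to 0.38 for mTOR and PI3K genes and from -0.31 to 0.19 for TGF-beta, activin and BMP genes. It ran from -0.35 to 0.12 for apoptosis genes, from -0.12 to 0.25 for cell cycle genes and from -0.93 to 0.13 for CXC chemokines. Receptors of the TNF, IL-1 and Toll-like families ran from -0.17 to 0.25, proteasome subunits from -0.26 to 0.11 and all compared genes from -0.19 to 0.35. Of 157 named genes past 2-fold, 147 stayed past it in the same direction after quantile normalization and 134 with the higher floor, where Hoxd8 turned to -0.073. When the p65-/- tumour array stood in for the p65-/- array taken before injection, which mixes genotype and tumour growth, the comparison gave 469 lower genes, and 91 of 156 named genes stayed past 2-fold. Under it these genes, lower before injection, had log2 differences above 0: Cyld (0.029), Cxcl12 (1.20), Ifit2 (0.65), Canx (0.18), Pdia3 (0.030), Shoc2 (0.044), Cdkn1b (0.050), Lox (0.58), Fbln2 (1.75), Timp3 (0.56), Adam9 (0.20), Cdh11 (0.47), Tagln (1.10), Itgb1 (0.20), Nrp1 (0.095), Dkk3 (0.74), Rdh10 (0.13), Hif1a (0.037) and Cyp1b1 (1.41). These, higher before injection, had differences below 0: Nefl (-3.27), Chst15 (-0.031), Kcnn4 (-1.03), Clu (-1.24), Il34 (-0.18), Dusp4 (-0.18), Col6a3 (-0.25) and Igfbp6 (-0.98). The cause was not tested. No paired analysis was possible because each group has 1 array, and no array could be left out for the same reason. Signal over background limits the comparison, and 5596 genes under the floor on both arrays were not compared.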

Other observations

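The integrin chain Itgb1, a receptor for fibronectin and collagen, had 909.8 in p65-/- cells, against 2416 in p65+/+ cells, 2.66-fold lower, and 2775 in p65-/- tumour cells and 2053 in p65+/+ tumour cells. Its log2 difference was -0.98 after quantile normalization, just under 2-fold, and it was the 1 lower gene among 20 integrins and laminins (median length 73.5 kb). Of the membrane proteases that shed growth factors, Adam10 had 300.5 in p65-/- cells and 1149.6 in p65+/+ cells, 3.83-fold lower in 3 of 4 compared probe sets, and Adam9 had 454 in p65-/- cells, against 1625 in p65+/+ cells, 3.58-fold lower. Both differed by under 2-fold in tumour cells. The amino acid transporter Slc7a5 had 1595 in p65-/- cells and 628 in p65+/+ cells, 2.54-fold higher. On the X chromosome, where the median difference was -0.36, the RNA helicase Ddx3x had 459 in p65-/- cells, against 2669.5 in p65+/+ cells, 5.81-fold lower in all 3 compared probe sets. The initiation factor Eif2s3x had 796 in p65-/- cells, against 2159.8 in p65+/+ cells, 2.71-fold lower, also in all 3. For Ddx3x the tumour values were 1809 in p65-/- tumour cells and 2759 in p65+/+ tumour cells.

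Probe sets that the annotation pairs with no gene were lower in 231 and higher in 33 of 2810 compared. Those paired with several genes were lower in 107 and higher in 7 of 594. Neither kind entered the counts of genes. The share of lower genes moved with signal strength, as given above, and longer genes were lower more often at equal strength. Among genes with a p65+/+ tumour signal of 9 to 10 on the log2 scale, 17.1% of bins 1 to 3 by length and 51.7% of bins 8 to 10 were lower in p65-/- cells before injection. In tumour cells these shares were 6.05% and 13.96%. The scanner files gave a median cell intensity of 78 for p65-/- and 91 for p65+/+ cells before injection, and 79 and 90 for the tumour cells of these genotypes.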
